A study of Mus musculus with 18 samples.

Results

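Nuclei carrying the hepatocyte tag (IP) were compared with the nuclei left in the supernatant of the same pull-down, in fresh liver of fasted mice, to ask which transcripts mark each fraction. The members were all libraries that the labels place in these groups, 3 IP and 3 supernatant, which make 6 of the 18 libraries of the series. Both groups came from female HEP-INTACT mice that had no food for 16 h, counted from ZT12, the onset of the active phase. IP nuclei were those bound to beads, and supernatant nuclei were those that were not. The titles give both fractions of a feeding state the same 3 mouse numbers. Ad libitum fed HEP-INTACT females, killed at the same time point, gave 3 fresh IP and 3 fresh supernatant libraries that were used here to test whether the fraction difference depended on feeding state. All groups carry the HEP-INTACT alleles, so no untagged liver was set beside them. The tag, the promoter that drives it, the strain and the age of the mice are not given in the sources used here. A letter A, B or C names the libraries of a group, and values per library are given in that order.

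In a tissue, INTACT (isolation of nuclei tagged in specific cell types) marks the nuclear envelope of a chosen cell type so that its nuclei can be pulled out with an antibody. Hepatocytes are the parenchymal cells of the liver and make plasma proteins, glucose, bile acids, ketone bodies and urea under the control of liver-enriched transcription factors. Around them lie sinusoidal endothelial cells, Kupffer cells (the resident macrophages), stellate cells, lymphocytes and the cholangiocytes of the bile ducts, which exchange growth factors and morphogens with hepatocytes. During a fast, hepatocytes burn fatty acids and lower the synthesis of fatty acids and sterols.

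The count table lists 20105 genes, each with its whole span, introns included, as the counted length, and the fasted libraries held 33242961 to 54434263 counts in IP and 34247281 to 37188834 in the supernatant. After a filter on low counts, 13999 genes were tested and 6106 were left out. The fractions differed in 11232 of the genes tested, or 80.2% (edgeR quasi-likelihood test, Benjamini-Hochberg adjusted p under 0.05). In IP, 5590 genes (39.9%) were higher and 5642 (40.3%) were lower. A difference of at least 4-fold was called higher in IP for 1776 genes (12.7%) and lower for 3376 genes (24.1%). At 64-fold, 14 genes were higher in IP and 1114 lower. The 3 IP and 3 supernatant libraries did not overlap for 84.5% of all genes tested, so a lack of overlap is common here. The median log2 fold change over all genes tested was 0.02. With libraries scaled by their totals alone this median moved by -0.32, and 4182 genes were then higher and 6820 lower, so that 38.0% of calls were higher in IP, beside 49.8% as scaled here. Genes at least 4-fold higher in IP held 39.5 to 42.0% of all counts in IP libraries and 3.46 to 4.41% in supernatant libraries. Those at least 4-fold lower in IP held 1.09 to 1.26% of counts in IP and 28.4 to 28.8% in the supernatant.

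Hepatocyte markers were higher in IP and the markers of most other liver cell types were lower. The 18 hepatocyte markers summed to 25324 to 33092 CPM (counts-per-million, with TMM factors) in IP libraries and to 1082 to 1766 CPM in supernatant libraries, so the supernatant held 4.83% ± 1.16 (SD, n = 3) of the IP level. The 20 Kupffer cell and macrophage markers summed to 102 to 132 CPM in IP and to 5872 to 8007 CPM in the supernatant, and the IP level was 1.56% ± 0.242 (SD, n = 3) of that in the supernatant. Most of that IP sum came from Slc40a1, the iron exporter ferroportin, and the share was 0.254% without Slc40a1. The sums of the 2 fractions lay far apart for both lists. For the 23 endothelial markers the sums were 124 to 221 CPM in IP and 5591 to 7119 CPM in the supernatant, an IP share of 2.7% ± 0.764 (SD, n = 3), or 1.51% without Gata4. The 21 lymphocyte markers gave an IP share of 1.3% ± 0.229 (SD, n = 3), or 0.756% without Tcf7, and the 20 stellate cell and fibroblast markers gave 6.46% ± 1.37 (SD, n = 3). None of the markers of these 5 types was at 0 in all 3 libraries of the fraction where its type was scarce. The 13 cholangiocyte markers summed to 313 to 384 CPM in IP and 96.4 to 140.1 CPM in the supernatant, which held 35.2% ± 6.75 (SD, n = 3) of the IP level, or 15.7% without Bicc1, the largest part of that supernatant sum. Most of the IP sum came from Pkhd1, given below, so the excess of this list in IP rests largely on that gene. Dendritic cell, neutrophil and erythroid markers gave an IP share of 1.16% ± 0.136 (SD, n = 3), or 0.626% without Klf1, and mesothelial and smooth muscle markers 11.7% ± 2.38 (SD, n = 3), or 5.14% without Tagln. The former list pools several cell types, and its erythroid members Klf1 and Alas2, given below, were higher in IP. Its low sum in IP therefore does not describe erythroid markers. In nuclei pooled from a whole liver, fewer nuclei of a type and less RNA per nucleus cannot be told apart.

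**Figure D1:**
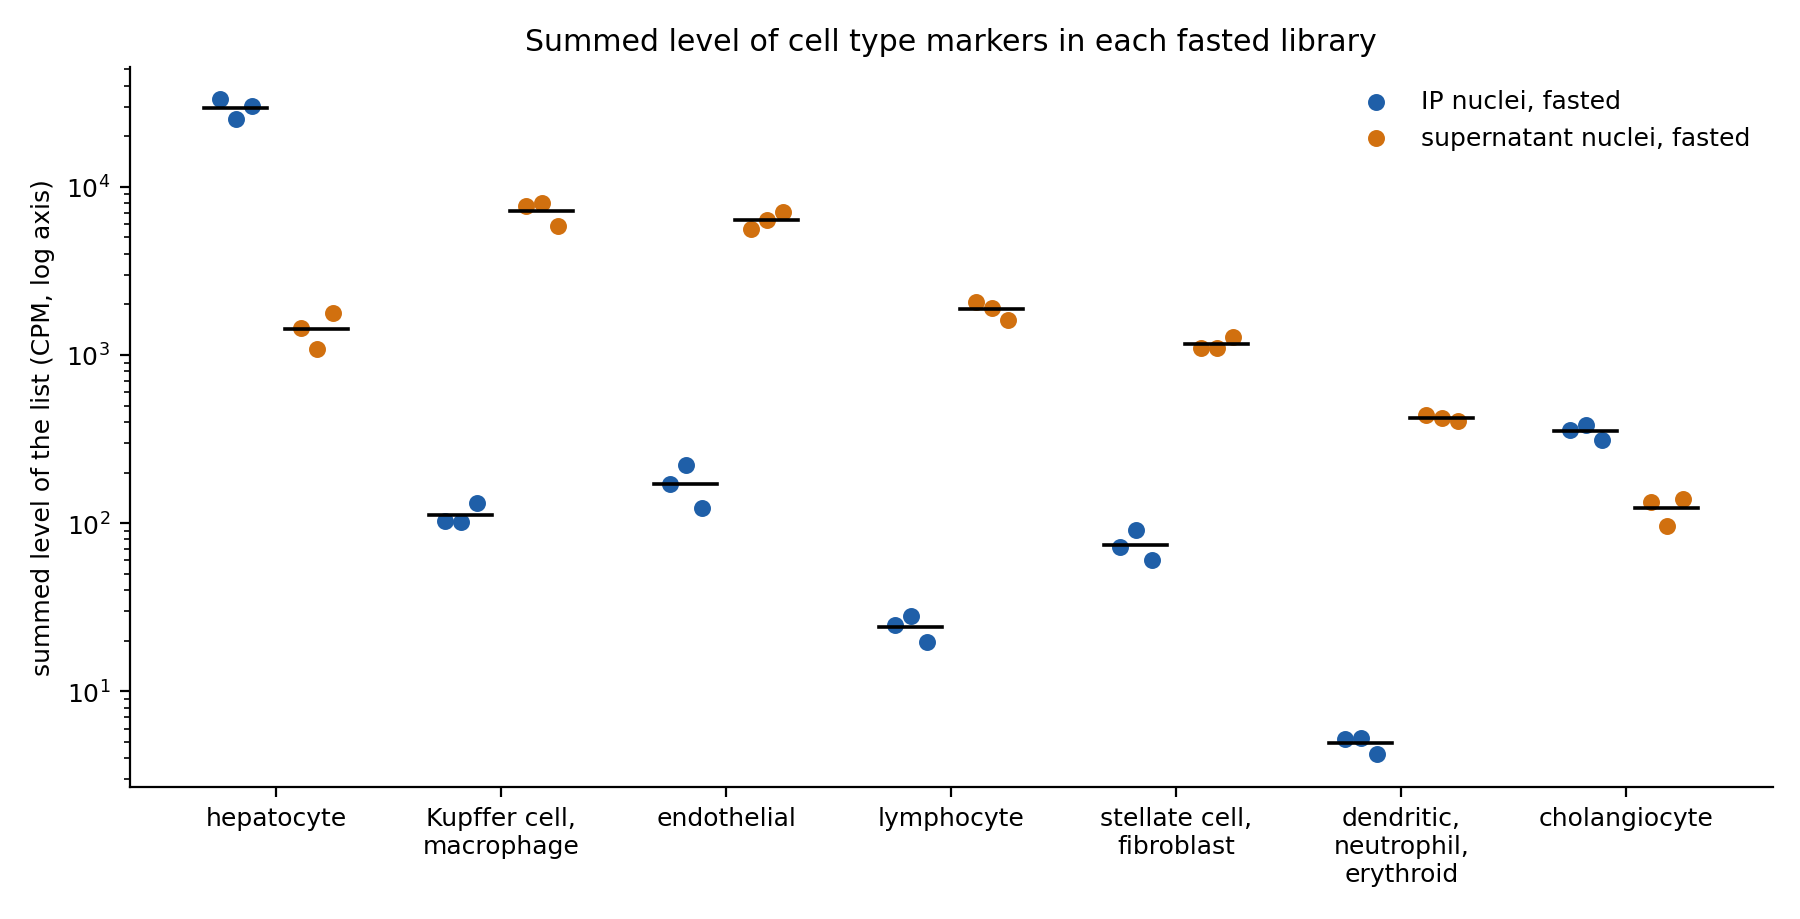
Summed level of each marker list (CPM, log axis) in every fasted library, with IP libraries left of supernatant libraries and a bar at the mean of 3 libraries. Hepatocyte markers sum to 25324 to 33092 CPM in IP and 1082 to 1766 CPM in the supernatant. The other lists except the cholangiocyte markers have lower sums in IP, and no pair of groups overlaps. In the pooled dendritic cell, neutrophil and erythroid list, the erythroid genes Klf1 and Alas2 are higher in IP.

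Of the hepatocyte transcription factors, 18 of 22 were higher and 0 lower in IP, beside the 39.9% and 40.3% of all genes tested. At least 4-fold higher were 17 of them, beside 12.7% of all genes tested. The median log2 fold change was 4.86, against 0.02 over all genes tested. Hnf4a, a nuclear receptor that sustains hepatocyte identity, had 874, 695 and 827 CPM in IP, against 28.5, 24 and 36.9 CPM in the supernatant, a log2 fold change of 4.74 ± 0.21 (SE, adjusted p = 8.83e-07). It was high in every IP library and low in every supernatant library. Ppara, the receptor that turns on fatty acid oxidation in the fast, had 1609, 1432 and 1166 CPM in IP, against 33.2, 27.8 and 41.7 CPM in the supernatant, a log2 fold change of 5.36 ± 0.22 (SE, adjusted p = 7.73e-07). Creb3l3, a membrane-bound factor of the fasted liver, had 336, 339 and 301 CPM in IP, against 8.69, 9.23 and 11.1 CPM in the supernatant, a log2 fold change of 5.07 ± 0.12 (SE, adjusted p = 1.80e-07). Neither gene overlapped between fractions. Nr1i3, the xenobiotic receptor CAR (chr1:171213970-171218845), had the highest value of the list at 6.11; it overlaps Tomm40l, and reads of the pair cannot be split where the strand setting of the counting is not given. The pioneer factors of liver development differed to a like extent, with Foxa1, Foxa2 and Foxa3 at 5.27, 4.62 and 4.97 on the log2 scale. Lower on this scale were Nr1h4, the bile acid receptor FXR, at 2.65, Nr5a2 at 3.08 and Rxra, a dimer partner of FXR and CAR, at 0.95.

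The remaining 4 factors did not pass the test. Cebpa, which directs hepatocyte differentiation, had 11.6, 31.9 and 12.5 CPM in IP, against 12.2, 10.6 and 7.65 CPM in the supernatant, a log2 fold change of 0.88 ± 0.51 (SE, adjusted p = 0.0812). Only IP library B was high for Cebpa, and the fractions overlapped. Cebpb, a factor of the acute phase, had 5.43, 5.11 and 6.5 CPM in IP, against 6.98, 3.94 and 4.34 CPM in the supernatant (log2 fold change 0.15, adjusted p = 0.575). Esrra, a regulator of mitochondrial genes, stood at -0.2 and Nr1h2, the oxysterol receptor LXR-beta, at -0.18, with overlapping fractions; with libraries scaled by totals alone they were -0.53 (adjusted p = 0.00279) and -0.51 (adjusted p = 0.00633). In supernatant libraries the level of this list was 3.47% of that in IP at the median, beside 4.83% for the summed hepatocyte markers, whose part in these values was not tested.

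Promoters were searched for short motifs of liver and blood cell factors in the 300 bases around the start (250 before and 50 after), which RefSeq gave for 14937 of the 20105 genes, or 74.3% (build GRCm38.p6). The letters CAAAGTC on either strand, from the site of HNF4 (encoded by Hnf4a), were found in 6.24% of promoters of genes at least 4-fold higher in IP, in 4.84% of those at least 4-fold lower and in 4.23% of all promoters. The letters GAGGAAG, part of the site of PU.1 (encoded by Spi1, the factor of the myeloid lineage), were found in 10.4% of promoters of genes higher in IP, 18.7% of those lower in IP and 13.3% of all. With a difference of at least 16-fold, the HNF4 letters were in 9.18% of promoters of genes higher in IP and 5.54% of those lower, and the PU.1 letters in 8.8% of those higher and 20.9% of those lower. In the same order of classes, AGATAAG, bound by GATA factors, was in 2.96%, 2.94% and 2.54%, and TGACGTC, from the cAMP response element, in 2.73%, 3.19% and 4.37%. None of these motifs is contained in another. All promoters include those of genes that the filter on low counts left out, whereas the classes higher and lower in IP hold tested genes only. The part of this in the gaps was not tested. Median GC content was 57.3% in promoters of genes higher in IP, 58.7% in those lower and 57.3% in all. A match of letters is a description and shows no binding.

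Shown here are 3 promoters of genes higher in IP that hold the HNF4 letters, as the 150 bases before the annotated RefSeq start, 5′ to 3′ on the strand of the gene, with the matched letters or their reverse complement in capitals. They are those of Ahsg, which encodes the plasma protein fetuin-A (chr16:22891865-22892014, plus strand), of Hpx, the heme carrier hemopexin (chr7:105600117-105600266, minus strand), and of Asgr2, a chain of the asialoglycoprotein receptor of hepatocytes (chr11:70092494-70092643, plus strand).
Ahsg: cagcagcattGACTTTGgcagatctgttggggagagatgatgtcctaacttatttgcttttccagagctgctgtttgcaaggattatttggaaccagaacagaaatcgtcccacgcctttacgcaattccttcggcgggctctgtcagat
Hpx: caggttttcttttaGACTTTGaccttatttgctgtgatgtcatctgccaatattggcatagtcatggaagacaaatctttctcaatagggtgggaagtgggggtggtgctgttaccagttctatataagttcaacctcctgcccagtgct
Asgr2: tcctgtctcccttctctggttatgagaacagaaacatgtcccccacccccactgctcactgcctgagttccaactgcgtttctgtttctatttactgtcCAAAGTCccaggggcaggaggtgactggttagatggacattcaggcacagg
The match lay 140 bases before the start in Ahsg, 136 in Hpx and 51 in Asgr2. Ahsg had 1600.2, 1230.0 and 1654 CPM in IP, against 79.5, 48.6 and 84.6 CPM in the supernatant, a log2 fold change of 4.4 ± 0.29 (SE, adjusted p = 3.55e-06). Hpx had 258, 254 and 156 CPM in IP, against 15.9, 13.9 and 20.2 CPM in the supernatant, a log2 fold change of 3.74 ± 0.29 (SE, adjusted p = 6.34e-06). Asgr2 had 37.7, 45 and 37.6 CPM in IP, against 2.31, 1.97 and 2.79 CPM in the supernatant, a log2 fold change of 4.09 ± 0.17 (SE, adjusted p = 7.12e-07). In all of them every IP library stood above every supernatant library, and supernatant levels were 4.74%, 7.5% and 5.88% of those in IP.

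The PU.1 letters are shown in 3 promoters of genes lower in IP, drawn in the same way: Hpgds, the hematopoietic prostaglandin D synthase (chr6:65144731-65144880, minus strand), Csf3r, the receptor of granulocyte colony-stimulating factor (chr4:126024509-126024658, plus strand), and Cd5l, a scavenger protein secreted by macrophages (chr3:87357731-87357880, plus strand).
Hpgds: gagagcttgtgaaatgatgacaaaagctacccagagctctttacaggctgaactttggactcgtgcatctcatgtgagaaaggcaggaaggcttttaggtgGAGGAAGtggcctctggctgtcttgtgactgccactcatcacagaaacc
Csf3r: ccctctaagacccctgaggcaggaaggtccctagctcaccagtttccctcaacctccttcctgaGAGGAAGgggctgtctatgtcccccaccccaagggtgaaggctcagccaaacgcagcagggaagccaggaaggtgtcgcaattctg
Cd5l: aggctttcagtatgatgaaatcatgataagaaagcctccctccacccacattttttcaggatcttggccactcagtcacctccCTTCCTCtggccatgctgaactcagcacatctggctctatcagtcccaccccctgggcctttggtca
The match lay 49 bases before the start in Hpgds, 86 in Csf3r and 67 in Cd5l. Hpgds had 0.0823, 0.0808 and 0.0951 CPM in IP, against 90.1, 89.5 and 131 CPM in the supernatant, and its 3 IP libraries held 10 reads in all against 12508 in the supernatant. Csf3r had 0.384, 0.222 and 0.349 CPM in IP, against 191, 180.4 and 161 CPM in the supernatant, a log2 fold change of -9.15 ± 0.22 (SE, adjusted p = 1.07e-07). Cd5l had 1.12, 1.09 and 0.856 CPM in IP, against 425, 462 and 217 CPM in the supernatant, a log2 fold change of -8.47 ± 0.36 (SE, adjusted p = 1.13e-06). Every supernatant library lay far above every IP library for these genes, and supernatant library C was the lowest of its group for Cd5l.

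**Figure D2:**
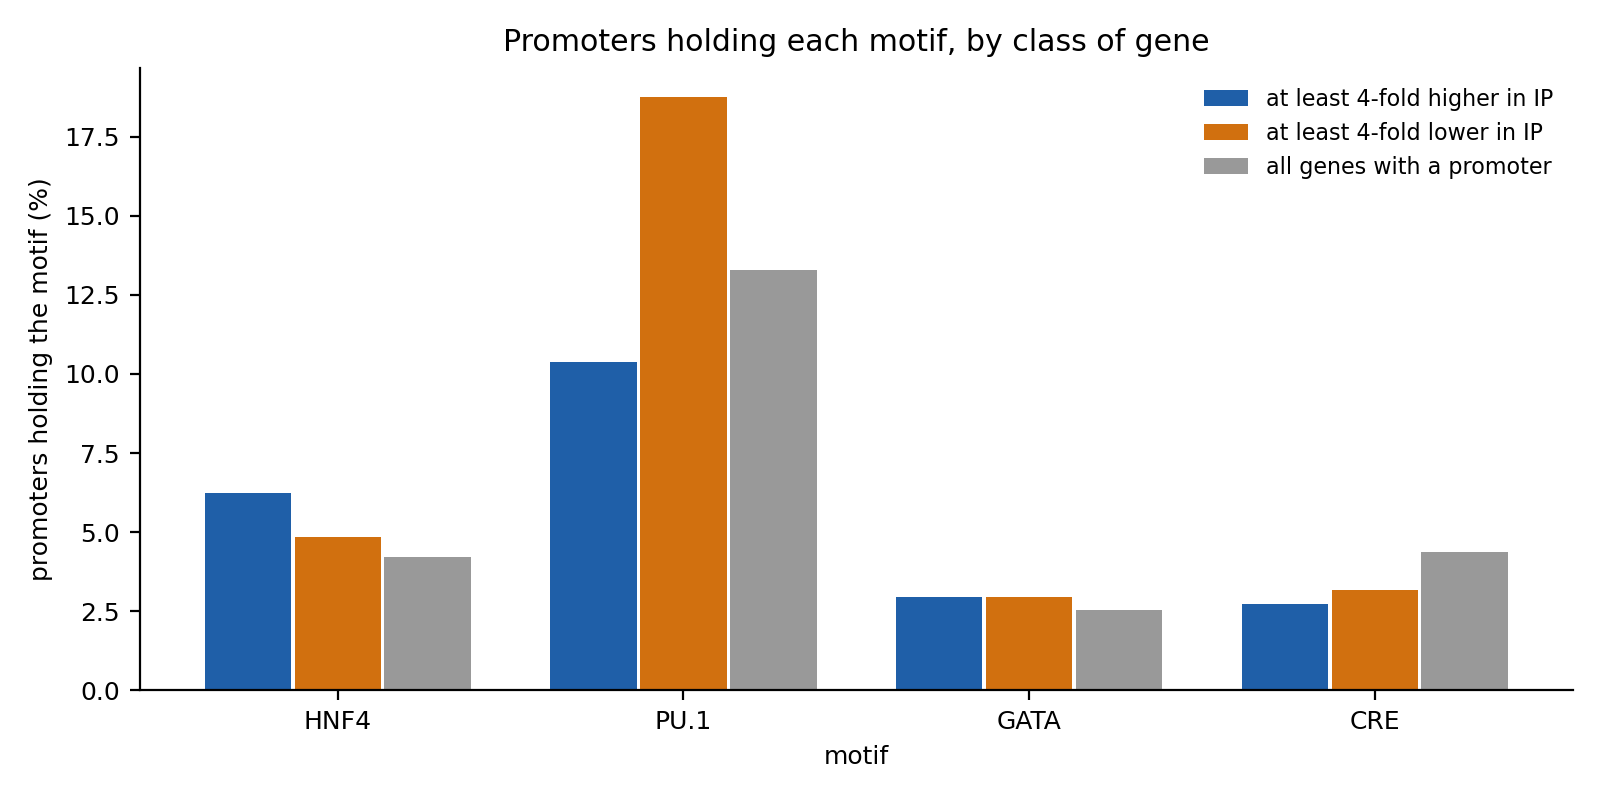
Share of promoters (%) that hold each motif on either strand, for genes at least 4-fold higher in IP, genes at least 4-fold lower in IP and all genes with a promoter. The HNF4 letters are in 6.24%, 4.84% and 4.23% of these classes, and the PU.1 letters in 10.4%, 18.7% and 13.3%.

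All 25 plasma protein genes were higher in IP, beside 39.9% of all genes tested, and 23 were so by at least 4-fold, beside 12.7%. Their median log2 fold change was 3.74, yet the size of the difference ranged from 1.84 to 5.36. At the low end, Apoa1, the main protein of high-density lipoprotein, had 206, 277 and 191 CPM in IP, against 69.96, 51.7 and 65.9 CPM in the supernatant, a log2 fold change of 1.84 ± 0.21 (SE, adjusted p = 4.95e-05). Hp, the hemoglobin scavenger haptoglobin, had 72.8, 71.3 and 54.3 CPM in IP, against 23, 15.1 and 16.7 CPM in the supernatant, a log2 fold change of 1.86 ± 0.23 (SE, adjusted p = 6.70e-05). Trf, the iron carrier transferrin, had 1114, 908 and 1261 CPM in IP, against 227, 159.9 and 228 CPM in the supernatant, a log2 fold change of 2.42 ± 0.22 (SE, adjusted p = 1.58e-05). These 3 genes kept a sizeable level in the supernatant, at 27.8%, 27.6% and 18.7% of that in IP. Alb, serum albumin, had 3936, 3374 and 4135 CPM in IP, against 519, 379 and 521 CPM in the supernatant, a log2 fold change of 3.01 ± 0.18 (SE, adjusted p = 3.32e-06). At the other end, Itih1, a heavy chain of the inter-alpha-trypsin inhibitor, had 454, 373 and 348 CPM in IP, against 9.09, 7.34 and 12.1 CPM in the supernatant, a log2 fold change of 5.36 ± 0.24 (SE, adjusted p = 8.95e-07). The fractions stood apart in both, with less of a gap for Alb. C8a, a chain of the complement membrane attack complex, had 222, 189.5 and 303 CPM in IP, against 6.27, 3.42 and 12.3 CPM in the supernatant, a log2 fold change of 5.02 ± 0.57 (SE, adjusted p = 4.67e-05), and the supernatant held 3.08% of its IP level. Between them lay F9, coagulation factor IX, at 4.69, Plg, plasminogen, at 4.75, Serpinc1, antithrombin, at 4.53, and Apob, the protein of very low-density lipoprotein, at 4.13. The fibrinogen chains Fga, Fgb and Fgg stood at 2.7, 3.57 and 3.29, and for each of them IP library B was the highest.

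Metabolic genes of hepatocytes were higher in IP with few exceptions. Of genes for the urea cycle or amino acid breakdown, 22 of 22 were higher and 0 lower in IP, beside 39.9% and 40.3% of all genes tested. All 22 were at least 4-fold higher, beside 12.7% of all genes tested, with a median of 4.84. Cps1, the entry enzyme of the urea cycle, had 14221, 9490.3 and 12365 CPM in IP, against 247, 194 and 464 CPM in the supernatant, a log2 fold change of 5.32 ± 0.41 (SE, adjusted p = 1.22e-05). Tat, which begins tyrosine breakdown and is induced by glucocorticoids, had 2400.0, 757 and 2273 CPM in IP, against 49.8, 26.4 and 79.6 CPM in the supernatant, a log2 fold change of 5.12 ± 0.71 (SE, adjusted p = 1.48e-04); IP library B was lowest for both genes and the fractions did not overlap. Gls2, the liver glutaminase, stood at 4.82 and Agxt, which detoxifies glyoxylate, at 5.59. Ass1, the enzyme that joins citrulline and aspartate, was at 3.8 but had only 3.18, 2.85 and 3.08 CPM in IP, against 0.162, 0.156 and 0.330 CPM in the supernatant. The reason for its low level was not tested.

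For gluconeogenesis, glycogen and sugar metabolism, 16 of 17 were higher and 1 lower in IP, beside 39.9% and 40.3% of all genes tested, with a median of 4.62. Pck1, which commits carbon to glucose synthesis, had 2359, 1403 and 2487 CPM in IP, against 79.9, 61.4 and 114 CPM in the supernatant, a log2 fold change of 4.62 ± 0.37 (SE, adjusted p = 9.70e-06). G6pc, which releases free glucose, had 1113, 934 and 1313 CPM in IP, against 29.6, 22.1 and 53 CPM in the supernatant, a log2 fold change of 5.0 ± 0.4 (SE, adjusted p = 1.06e-05). Ppargc1a, the coactivator of the gluconeogenic program, had 653, 417 and 518 CPM in IP, against 9.94, 7.83 and 15.9 CPM in the supernatant, a log2 fold change of 5.56 ± 0.35 (SE, adjusted p = 3.70e-06). These genes did not overlap between fractions in any library, as was so for 84.5% of all genes tested. Gckr, the inhibitor of glucokinase, was at 5.59, whereas Pygl, liver glycogen phosphorylase, was at 1.25 and Khk, ketohexokinase, at 2.0. The member that fell was Pgm1, a phosphoglucomutase, with 7.38, 7.34 and 6.34 CPM in IP, against 27.1, 28.4 and 33.8 CPM in the supernatant, a log2 fold change of -2.08 ± 0.12 (SE, adjusted p = 4.60e-06).

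All 15 genes of bile acid synthesis and transport were higher in IP, beside 39.9% of all genes tested, with a median of 4.78. At least 4-fold higher were 14 of them, beside 12.7% of all genes tested. Among the exporters of the canalicular membrane, Abcb11, the bile salt pump, had 1451, 1443 and 1918 CPM in IP, against 36.7, 33.1 and 68.3 CPM in the supernatant, a log2 fold change of 5.12 ± 0.35 (SE, adjusted p = 6.19e-06). Abcc2, which exports conjugates, had 2699, 2170.0 and 2075 CPM in IP, against 49.4, 36.8 and 69.7 CPM in the supernatant, a log2 fold change of 5.48 ± 0.29 (SE, adjusted p = 2.00e-06). Slc10a1, the bile acid importer of the sinusoidal side, had 127, 167 and 125 CPM in IP, against 6.33, 4.54 and 5.95 CPM in the supernatant, a log2 fold change of 4.64 ± 0.2 (SE, adjusted p = 7.72e-07). Supernatant levels of these transporters were 2.87%, 2.25% and 4.02% of those in IP. Cyp7a1, which starts bile acid synthesis from cholesterol, had 19.6, 54.6 and 22.1 CPM in IP, against 1.57, 1.48 and 1.4 CPM in the supernatant, a log2 fold change of 4.44 ± 0.47 (SE, adjusted p = 6.37e-05), with IP library B highest. Cyp27a1, a mitochondrial sterol hydroxylase, had the smallest difference of the list, with supernatant levels at 42.3% of IP.

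Hepatocytes near the central vein and near the portal vein express different enzymes, and both sets were higher in IP. Of the pericentral genes, 16 of 17 were higher and 1 lower in IP (median 4.17), and of the periportal genes, 14 of 16 were higher and 1 lower in IP (median 4.43). Over all genes tested, 39.9% were higher and 40.3% lower. Lgr5, a Wnt-dependent receptor of pericentral cells, had 80.9, 87.5 and 83.8 CPM in IP, against 1.9, 0.959 and 2.74 CPM in the supernatant, a log2 fold change of 5.49 ± 0.43 (SE, adjusted p = 3.75e-06); it overlaps A930009A15Rik. Cyp2e1, an ethanol-oxidizing cytochrome, was at 3.85. Glul, glutamine synthetase of the last cells before the central vein, had 248, 258 and 115 CPM in IP, against 87.1, 66.8 and 81.7 CPM in the supernatant, a log2 fold change of 1.4 ± 0.4 (SE, adjusted p = 0.00329), and IP library C was the nearest to the supernatant. On the periportal side, Hal, histidine ammonia-lyase, was at 4.75 and Cyp2f2, a xenobiotic cytochrome, at 4.13. Both lists held a member that fell in IP. Nkd1, a negative regulator of Wnt signalling, had 10.01, 9.94 and 6.5 CPM in IP, against 74, 76.4 and 89.7 CPM in the supernatant, a log2 fold change of -3.18 ± 0.22 (SE, adjusted p = 3.68e-06). Ctsc, the lysosomal protease cathepsin C, had 28.2, 22 and 31.5 CPM in IP, against 439.5, 577 and 339 CPM in the supernatant, a log2 fold change of -4.05 ± 0.27 (SE, adjusted p = 3.81e-06).

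**Figure D3:**
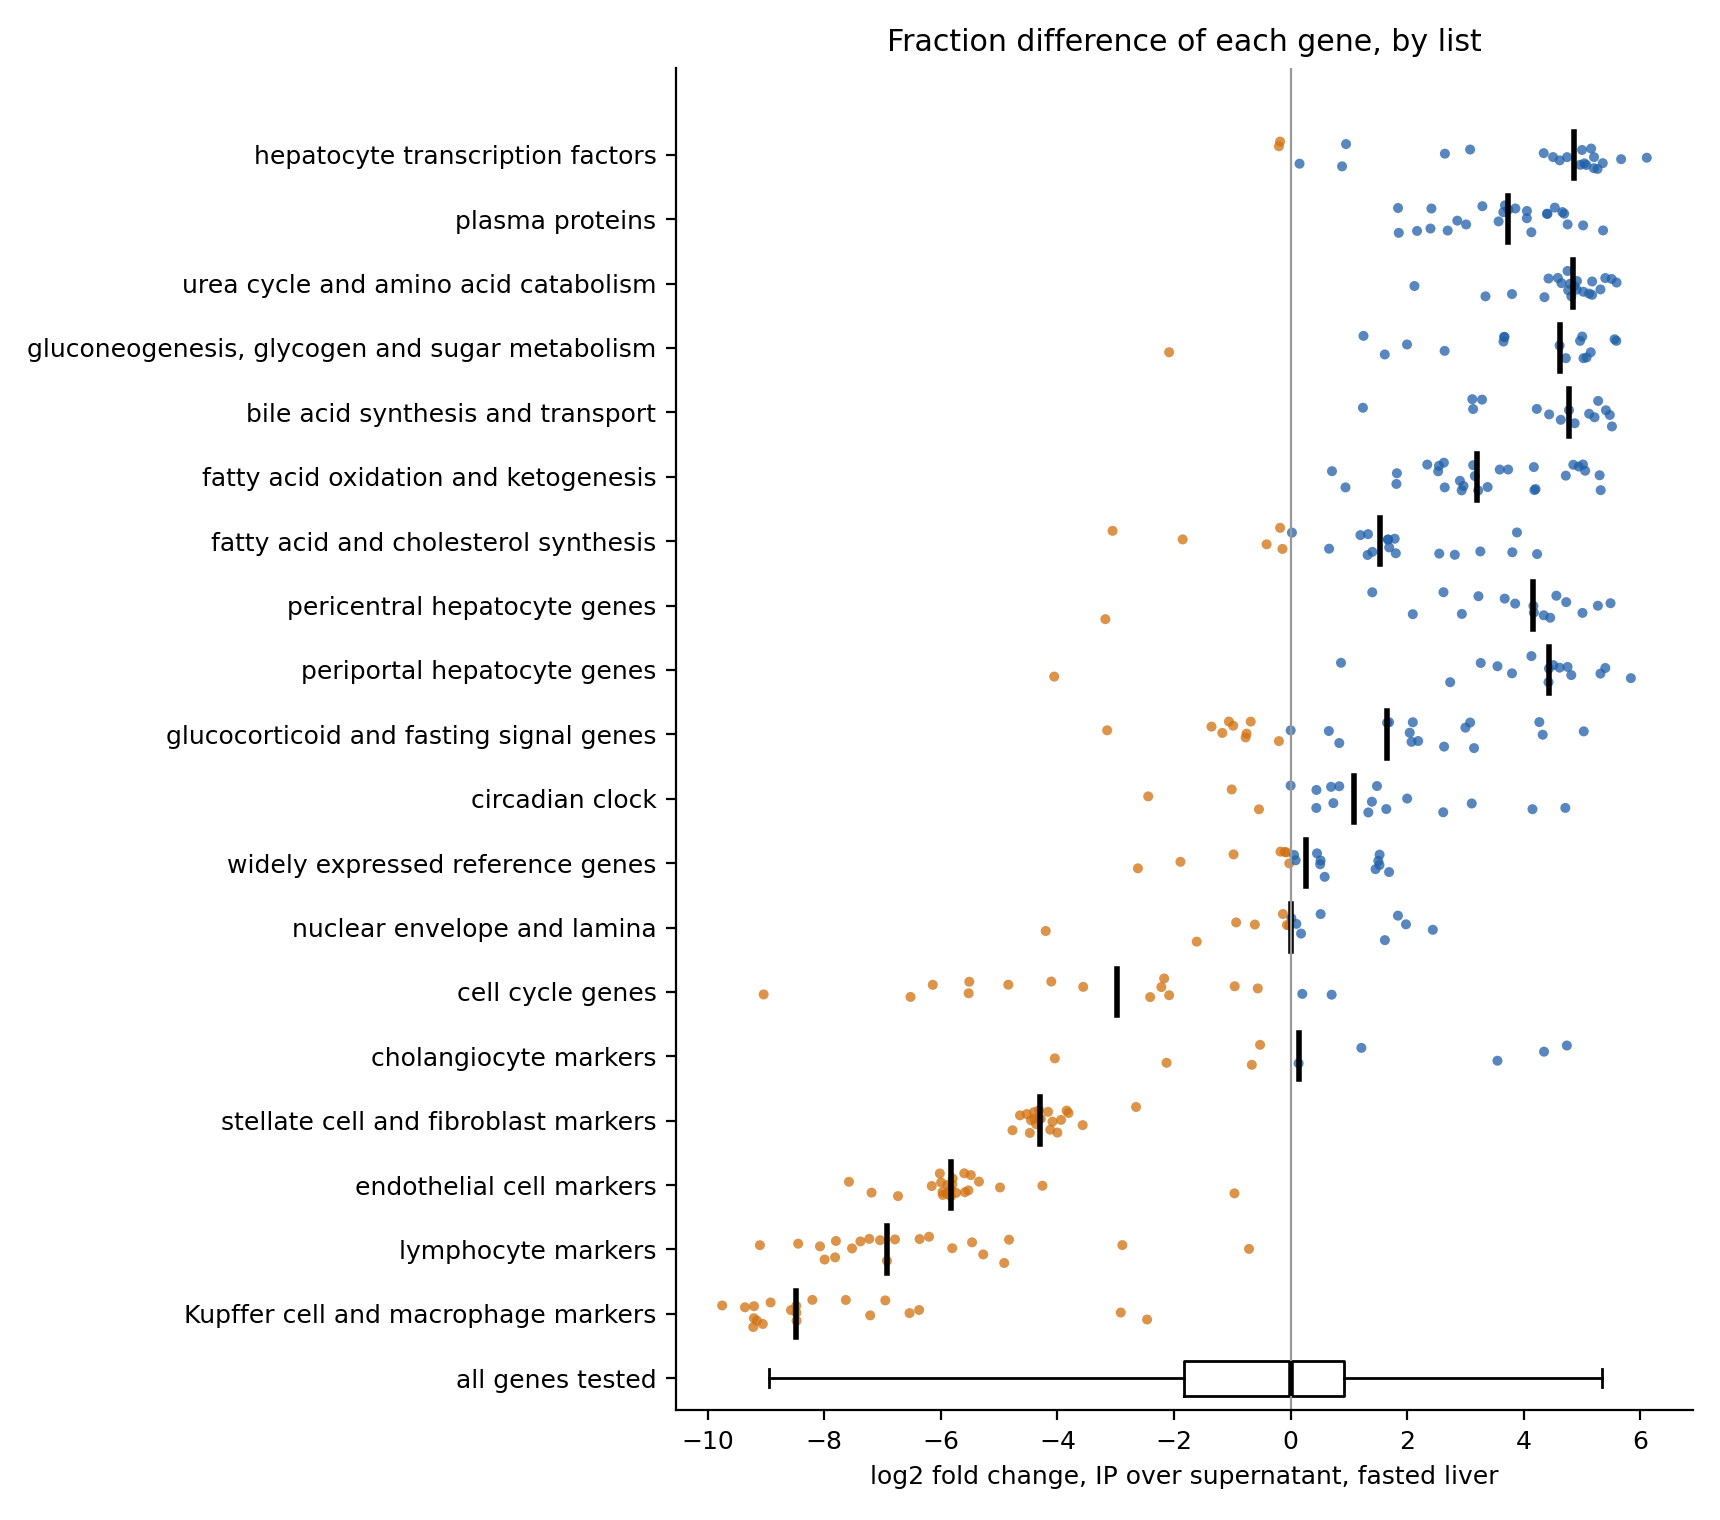
Log2 fold change, IP over supernatant, of every gene tested in each list (points, blue above 0 and orange below) with the list median as a bar, above a box for all genes tested (box, quartiles; whiskers, the 1st and 99th percentiles, -8.95 and 5.34). Medians run from 4.86 for hepatocyte transcription factors to -8.48 for Kupffer cell and macrophage markers, against 0.02 over all genes.

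The 10 largest increases in IP among genes called with a mean of at least 10 CPM in the higher fraction and no overlap of libraries ran from 5.84 to 6.34 on the log2 scale. The sulfotransferases Sult2a1, Sult2a2 and Sult2a5, which conjugate steroids and bile acids, held 3 of these places at 5.98, 6.26 and 6.34, and the cytochromes Cyp2c38 and Cyp4a32 were at 6.06 and 5.92; all 5 have near-identical relatives, so the split of reads among them is uncertain. Plin4, a lipid droplet protein, had 244, 171 and 101 CPM in IP, against 2.36, 2.05 and 2.74 CPM in the supernatant, a log2 fold change of 6.17 ± 0.39 (SE, adjusted p = 4.15e-06); it overlaps Hdgfrp2. Gfra1, a receptor of glial cell line-derived neurotrophic factor, had 3064, 2989 and 4036 CPM in IP, against 36.3, 39.7 and 88.9 CPM in the supernatant, a log2 fold change of 5.93 ± 0.43 (SE, adjusted p = 9.87e-06). Mfsd2a, a transporter of lysophosphatidylcholine, had 827, 627 and 673 CPM in IP, against 11.8, 9.26 and 16.1 CPM in the supernatant, a log2 fold change of 5.84 ± 0.26 (SE, adjusted p = 9.56e-07). Every IP library stood far above every supernatant library in each of these 3 genes. Golt1a, a vesicle transport protein of the Golgi, had 123, 101 and 86.4 CPM in IP, against 1.57, 1.53 and 2.24 CPM in the supernatant, a log2 fold change of 5.86 ± 0.23 (SE, adjusted p = 5.44e-07), and Nr1i3, given above, completes the 10.

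Decreases reached further on the log2 scale than increases. The 10 strongest, by the same rule, ran from -9.92 to -10.74. Cd80, a costimulatory ligand of antigen-presenting cells, had 4 reads in the 3 IP libraries together and 7726 in the supernatant libraries. Lilra5 and Lilr4b, leukocyte immunoglobulin-like receptors, had 0.0823, 0.0606 and 0.127 CPM in IP, against 120.5, 132 and 123 CPM in the supernatant, and 0.274, 0.283 and 0.222 CPM in IP, against 271, 283 and 293 CPM in the supernatant. Clec4d, a lectin receptor of myeloid cells, had 1 read in IP and 2111 in the supernatant, and Clec4a4, of the same cluster, 2 and 2578. At so few reads a fitted fold change depends on the prior count and is not a bound. Gm5150, a predicted gene, had 0.576, 0.344 and 0.317 CPM in IP, against 414, 419 and 482 CPM in the supernatant, a log2 fold change of -10.05 ± 0.25 (SE, adjusted p = 1.07e-07). B430306N03Rik, Ms4a6d and Ms4a8a had 6, 4 and 6 reads in IP, against 7629, 5260 and 6447 in the supernatant. Reads of the Lilr, Clec4 and Ms4a clusters may be shared among close relatives. Hpgds is the remaining member.

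Set against gene length, the most abundant transcripts differed between the fractions. In IP the highest levels per kb of counted length were those of Pck1 (337 CPM per kb in IP and 13.7 in the supernatant), Errfi1, an inhibitor of EGF receptor signalling (315 and 9.76), Cyp4a14, a fatty acid hydroxylase (246 and 7.41), Alb (243 and 30.1) and Eif4a1, a translation initiation helicase (232 and 56). In the supernatant they were those of Cdk8, a kinase of the Mediator complex (104 CPM per kb in IP and 142 in the supernatant), Clec4f, a Kupffer cell lectin (0.159 and 94.5), Rsrp1 (78.4 and 90.6), Apoe, an apolipoprotein made by hepatocytes and macrophages (51.7 and 66.1), and Ddx5, an RNA helicase (45 and 61.6). Of the supernatant set, Clec4f and Ddx5 were lower in IP, at -9.21 and -0.45, while Cdk8, Rsrp1 and Apoe overlapped between fractions and did not pass. Without fasted supernatant library C the call for Ddx5 was lost (adjusted p = 0.0749). With libraries scaled by totals alone, Cdk8 was at -0.77 (adjusted p = 0.00723) and Rsrp1 at -0.53 (adjusted p = 0.0273). Gene length itself hardly varied with the fraction: median counted length was 24.1 kb in genes at least 4-fold higher in IP, 27.6 kb in those at least 4-fold lower and 23.8 kb in all genes tested.

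All 20 Kupffer cell and macrophage markers fell in IP by at least 4-fold, beside the 24.1% of all genes tested that did so, and their median of -8.48 was the lowest of the lists. Clec4f had 1.56, 2.14 and 1.81 CPM in IP, against 1193, 1210.1 and 877 CPM in the supernatant, a log2 fold change of -9.21 ± 0.2 (SE, adjusted p = 1.60e-07). Cd163, the scavenger receptor of hemoglobin complexes, had 1.1, 0.808 and 0.856 CPM in IP, against 998, 777 and 601 CPM in the supernatant, a log2 fold change of -9.75 ± 0.25 (SE, adjusted p = 2.49e-07). Spi1, which encodes the PU.1 factor, had 0.302, 0.303 and 0.349 CPM in IP, against 186, 192 and 130.0 CPM in the supernatant, a log2 fold change of -9.05 ± 0.19 (SE, adjusted p = 1.80e-07). Supernatant library C was the lowest of its group for all 3, and IP levels were 0.168%, 0.116% and 0.188% of those in the supernatant. Timd4, a phosphatidylserine receptor of resident macrophages, was at -9.15, and the complement genes C1qa, C1qb and C1qc at -7.21, -8.48 and -7.63. Slc40a1 and Cd68, a lysosomal protein, had the smallest differences, -2.91 and -2.46; Slc40a1 had 84.9, 85.3 and 118 CPM in IP, against 601, 867 and 700.1 CPM in the supernatant.

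All 21 lymphocyte markers fell in IP, beside 40.3% of all genes tested, with a median of -6.92. Ebf1, the B cell lineage factor, had 0.933, 1.37 and 0.920 CPM in IP, against 355, 309 and 224 CPM in the supernatant, a log2 fold change of -8.07 ± 0.27 (SE, adjusted p = 3.97e-07). Skap1, an adaptor of T cell receptor signalling, had 0.795, 1.5 and 0.761 CPM in IP, against 307, 242 and 256 CPM in the supernatant, a log2 fold change of -7.99 ± 0.32 (SE, adjusted p = 4.72e-07). Both were highest in supernatant library A. Tcf7, a T cell factor, had the smallest difference, with 7.93, 12.6 and 10.2 CPM in IP, against 18.9, 16.4 and 15.2 CPM in the supernatant (-0.71, adjusted p = 0.0089), and Cd247, a chain of the T cell receptor complex, stood at -2.89; Cd247 overlaps Pou2f1. Of 12 dendritic cell, neutrophil and erythroid markers, 9 were tested, of which 7 fell and 2 rose, beside 40.3% and 39.9% of all genes tested. Clec9a, a receptor of cross-presenting dendritic cells, had 1.07, 1.54 and 0.793 CPM in IP, against 225, 217 and 219.8 CPM in the supernatant, a log2 fold change of -7.56 ± 0.26 (SE, adjusted p = 2.64e-07). The 2 that rose belong to erythroid cells. Klf1, the erythroid Kruppel-like factor, had 2.77, 2.24 and 1.78 CPM in IP, against 0.0694, 0.0259 and 0.0254 CPM in the supernatant, a log2 fold change of 5.68 ± 0.28 (SE, adjusted p = 1.10e-05), from 268 reads in IP and 5 in the supernatant. Alas2, the erythroid enzyme of heme synthesis, had 0.823, 1.01 and 1.17 CPM in IP, against 0.486, 0.493 and 0.457 CPM in the supernatant, a log2 fold change of 1.06 ± 0.14 (SE, adjusted p = 0.00597). Xcr1 and Cd209a, of dendritic cells, had no read in any IP library, and 3 counts over these libraries, the most that a count of 0 allows, would be 0.0255 CPM; such limits cover counting error only.

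All 23 endothelial markers fell in IP, beside 40.3% of all genes tested, with a median of -5.83. At least 4-fold lower were 22 of them, beside 24.1% of all genes tested. Stab2, the hyaluronan scavenger of sinusoidal endothelium, had 38.6, 40.6 and 19.2 CPM in IP, against 1668, 1828 and 2110.0 CPM in the supernatant, a log2 fold change of -5.83 ± 0.36 (SE, adjusted p = 3.08e-06). Kdr, the main receptor of vascular endothelial growth factor, had 4.22, 5.54 and 1.81 CPM in IP, against 148, 202 and 219 CPM in the supernatant, a log2 fold change of -5.6 ± 0.51 (SE, adjusted p = 1.01e-05). Lyve1, a hyaluronan receptor of sinusoids and lymphatics, had 0.521, 0.627 and 0.571 CPM in IP, against 19.4, 25.7 and 65.8 CPM in the supernatant, a log2 fold change of -6.0 ± 0.54 (SE, adjusted p = 4.51e-05). Supernatant library C was the highest and IP library C the lowest of its group for Stab2 and Kdr. Mrc1, the mannose receptor, which Kupffer cells also express, fell most, to 0.520% of the supernatant level. Gata4, a factor of sinusoidal identity that hepatocytes also express, fell least, with 67.4, 95 and 70.4 CPM in IP, against 101, 129.5 and 223 CPM in the supernatant, a log2 fold change of -0.96 ± 0.37 (SE, adjusted p = 0.0185). The call for Gata4 was lost when any of these libraries was left out, namely fasted IP A or C, with adjusted p of 0.0522 to 0.0682. Stellate cell and fibroblast markers fell in all 20 cases, beside 40.3% of all genes tested. Their values lay within a narrow band of -4.77 to -2.65 around a median of -4.3. Reln, the glycoprotein reelin made by stellate cells, had 38.7, 46.7 and 37.3 CPM in IP, against 572, 580.4 and 608 CPM in the supernatant, a log2 fold change of -3.84 ± 0.1 (SE, adjusted p = 3.19e-07). Lrat, which stores vitamin A as esters, had 1.04, 1.39 and 0.888 CPM in IP, against 13.6, 20.2 and 18.1 CPM in the supernatant, a log2 fold change of -3.94 ± 0.25 (SE, adjusted p = 3.86e-06). Pdgfra, a platelet-derived growth factor receptor of mesenchyme, had 2.47, 2.81 and 1.36 CPM in IP, against 53.9, 43.5 and 50.6 CPM in the supernatant, a log2 fold change of -4.45 ± 0.33 (SE, adjusted p = 2.96e-06).

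Cholangiocyte markers did not move together: 3 of 9 were higher and 2 lower in IP of those tested, with a median of 0.14. Over all genes tested, 39.9% were higher and 40.3% lower. Pkhd1, the ciliary protein fibrocystin, had 245, 235 and 188 CPM in IP, against 17.8, 4.74 and 10.1 CPM in the supernatant, a log2 fold change of 4.35 ± 0.56 (SE, adjusted p = 7.61e-05). Sox9, a factor of ducts and of the hepatocytes next to them, was at 3.55, with 1.4, 2.83 and 1.3 CPM in IP, against 0.208, 0.130 and 0.127 CPM in the supernatant. The keratin of duct cells Krt7 went the other way, with 0.0549, 0.162 and 0.0317 CPM in IP, against 1.8, 1.43 and 1.42 CPM in the supernatant, a log2 fold change of -4.04 ± 0.42 (SE, adjusted p = 1.07e-04), and Bicc1, an RNA-binding protein, fell as well, to 22.8% of the supernatant level. Epcam and Krt19, which define duct cells, were under 1 CPM in every fasted library. Of 16 cell cycle genes, 13 fell in IP and 1 rose (median -2.98), beside 40.3% and 39.9% of all genes tested. Top2a, a topoisomerase of dividing cells, had 0.0823, 0.243 and 0.0951 CPM in IP, against 5.18, 9.72 and 6.07 CPM in the supernatant, a log2 fold change of -5.51 ± 0.45 (SE, adjusted p = 1.71e-05), and Cdk1, the mitotic kinase, 0.247, 0.243 and 0.190 CPM in IP, against 3.63, 5.03 and 3.3 CPM in the supernatant, a log2 fold change of -4.1 ± 0.21 (SE, adjusted p = 7.58e-06). Supernatant library B was the highest for both. The licensing factors Mcm2 and Mcm5 fell to 22.1% and 8.63% of the supernatant level, whereas Ccnd1, the cyclin of G1, had 9.13, 12.4 and 17.2 CPM in IP, against 11.1, 9.77 and 12.8 CPM in the supernatant and overlapped between fractions.

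Of 10 ligands each set beside its receptor or coreceptor, 7 pairs stood in opposite fractions and 3 in the same one. These members were chosen with earlier results of these data known. No share of opposite pairs over all genes was computed, so the count is a description only. Among all ligands, 8 of 29 were higher and 19 lower in IP (median -4.0), and among all receptors, 16 of 41 were higher and 20 lower in IP (median -0.74), beside 39.9% and 40.3% of all genes tested. Hgf, the hepatocyte growth factor made by stellate and endothelial cells, had 6.55, 12.7 and 5.87 CPM in IP, against 258, 286 and 339 CPM in the supernatant, a log2 fold change of -5.12 ± 0.36 (SE, adjusted p = 5.84e-06), while its receptor Met had 161, 198 and 213 CPM in IP, against 6.29, 6.35 and 11.1 CPM in the supernatant, a log2 fold change of 4.59 ± 0.29 (SE, adjusted p = 3.25e-06). Rspo3, the R-spondin of central vein endothelium, had 3.87, 5.4 and 1.78 CPM in IP, against 88.5, 86.3 and 99 CPM in the supernatant, a log2 fold change of -4.61 ± 0.47 (SE, adjusted p = 1.44e-05), while its receptor Lgr4 had 207, 206 and 212 CPM in IP, against 18.8, 17.6 and 24.4 CPM in the supernatant, a log2 fold change of 3.36 ± 0.14 (SE, adjusted p = 8.65e-07). In the count of pairs Rspo3 stands with another of its receptors, Lgr5, given above at 5.49. Ligands were low and receptors high in IP for both pairs, with no overlap of libraries. Bmp6, the endothelial signal for iron status, had 7.19, 10.2 and 4.66 CPM in IP, against 328, 371 and 575 CPM in the supernatant, a log2 fold change of -5.84 ± 0.41 (SE, adjusted p = 5.59e-06); its coreceptor hemojuvelin (Hfe2) had 60.2, 97.2 and 51.8 CPM in IP, against 2.08, 1.74 and 1.88 CPM in the supernatant, a log2 fold change of 5.2 ± 0.28 (SE, adjusted p = 2.43e-06), and their target Hamp, the iron hormone hepcidin, was at 4.28. Wnt2 and Wnt9b, the Wnt proteins of central vein endothelium, fell to 2.23% and 6.43% of the supernatant level. Lrp6, the shared Wnt coreceptor, had 259, 290.5 and 269.7 CPM in IP, against 275, 293 and 269 CPM in the supernatant, with overlapping fractions, and was at -0.35 (adjusted p = 0.00858) with libraries scaled by totals alone.

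The reverse arrangement held for Vegfa, Cxcl12 and Igf1, which rose in IP while the receptor fell. Vegfa, the vascular growth factor, had 345, 404 and 384 CPM in IP, against 16.9, 12.4 and 23.4 CPM in the supernatant, a log2 fold change of 4.43 ± 0.27 (SE, adjusted p = 2.65e-06), whereas its receptor Kdr stood at -5.6. Cxcl12, a chemokine, had 176, 249.8 and 188 CPM in IP, against 71.5, 69.7 and 75.8 CPM in the supernatant, a log2 fold change of 1.5 ± 0.16 (SE, adjusted p = 4.62e-05), whereas its receptor Cxcr4 had 4 reads in IP and 1297 in the supernatant. Igf1, the growth factor released by liver, had 1859, 1222 and 629.5 CPM in IP, against 309.8, 285 and 297 CPM in the supernatant, a log2 fold change of 2.06 ± 0.46 (SE, adjusted p = 0.00114), and its receptor Igf1r 10.6, 15.5 and 7.71 CPM in IP, against 280.3, 275 and 454 CPM in the supernatant, a log2 fold change of -4.89 ± 0.37 (SE, adjusted p = 7.95e-06). IP library C was the lowest in IP for Igf1 and Igf1r. Thpo, thrombopoietin, was at 5.48 and overlaps Chrd. Both partners fell in IP for stem cell factor, with Kitl at -5.86 and Kit at -5.37, and for interleukin 34 and its receptor, with Il34 at -4.36 and Csf1r at -8.57. Both partners rose for Fgf21, the fasting hormone of liver (5.32), and its coreceptor Klb (5.46). The inflammatory cytokine Il1b had 0.137, 0.323 and 0.159 CPM in IP, against 295, 144 and 153 CPM in the supernatant, a log2 fold change of -9.8 ± 0.45 (SE, adjusted p = 1.54e-06), and its receptor Il1r1 was higher in IP at 2.06.

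**Figure D4:**
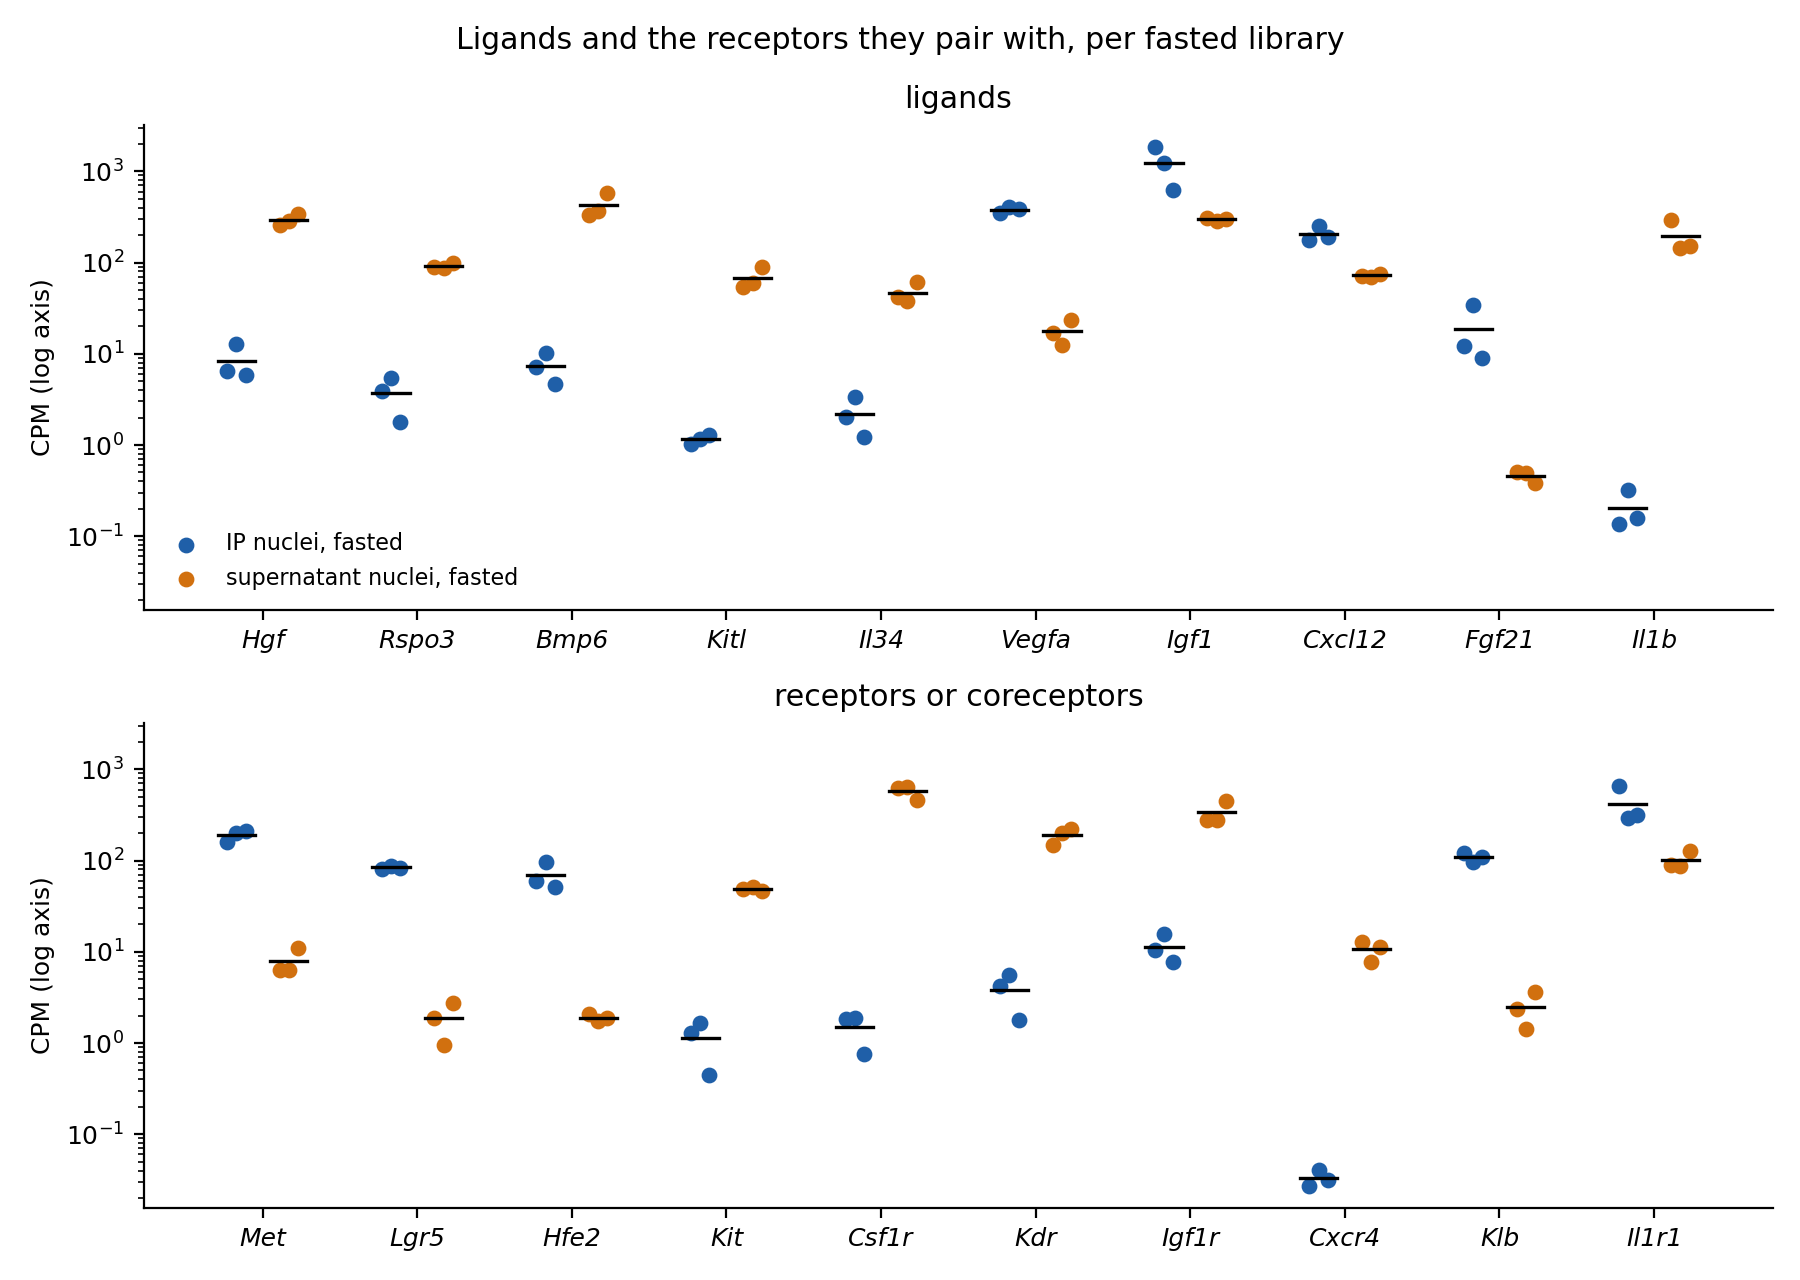
Level (CPM, log axis) of 10 ligands and of the receptor or coreceptor that each pairs with, drawn below it, in every fasted library, with IP libraries left of supernatant libraries and a bar at the mean. Hgf, Rspo3 and Bmp6 are lower and Met, Lgr5 and Hfe2 higher in IP; Vegfa, Igf1 and Cxcl12 are higher and Kdr, Igf1r and Cxcr4 lower in IP.

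Hormone receptors did not share a direction. Gcgr, the glucagon receptor, had 206, 250.2 and 204 CPM in IP, against 14.8, 12.6 and 18.4 CPM in the supernatant, a log2 fold change of 3.85 ± 0.19 (SE, adjusted p = 1.16e-06). Ghr, the growth hormone receptor, was at 4.3, Egfr, the receptor of EGF, at 5.05, and Adipor2 at 3.6, whereas Adipor1, the other adiponectin receptor, fell to 40.4% of the supernatant level. Insr, the insulin receptor, had 614, 628 and 607 CPM in IP, against 307, 362 and 342 CPM in the supernatant, a log2 fold change of 0.87 ± 0.07 (SE, adjusted p = 9.87e-05). Nr3c1, the glucocorticoid receptor, had 269.9, 308 and 312 CPM in IP, against 307, 361 and 353 CPM in the supernatant, and the fractions overlapped (-0.2, adjusted p = 0.12), while it was at -0.52 (adjusted p = 0.00361) with libraries scaled by totals alone. Lepr, the leptin receptor, differed more within a fraction than between them, with 140.2, 50.8 and 531 CPM in IP, against 208, 348 and 272 CPM in the supernatant, a log2 fold change of -0.2 ± 1.0 (SE, adjusted p = 0.811). IP library C was far above the other IP libraries, and without it Lepr was at -1.53 (adjusted p = 0.0178). Cd36, a fatty acid translocase, had 95.4, 117 and 15.5 CPM in IP, against 99.2, 148 and 205 CPM in the supernatant and did not pass either.

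Among glucocorticoid and fasting signal genes, 15 of 25 were higher and 6 lower in IP (median 1.66), beside 39.9% and 40.3% of all genes tested. Zbtb16, a zinc finger target of the glucocorticoid receptor, had 2786, 2626 and 1878 CPM in IP, against 330.0, 281 and 300.4 CPM in the supernatant, a log2 fold change of 3.0 ± 0.19 (SE, adjusted p = 3.84e-06). Igfbp1, an IGF-binding protein secreted in the fast, had 378, 128 and 308 CPM in IP, against 9.13, 4.95 and 10.8 CPM in the supernatant, a log2 fold change of 5.03 ± 0.59 (SE, adjusted p = 5.35e-05). Fkbp5, a chaperone induced by glucocorticoids in many cell types, had 447, 255 and 284 CPM in IP, against 888, 545 and 516 CPM in the supernatant, a log2 fold change of -0.98 ± 0.35 (SE, adjusted p = 0.0142). Of these, Zbtb16 and Igfbp1 were high in IP and Fkbp5 was high in the supernatant. Per1, a clock gene that glucocorticoids induce, had 126, 67.8 and 116 CPM in IP, against 127, 76.6 and 105 CPM in the supernatant and overlapped between fractions. Of the clock genes, 13 of 18 were higher and 3 lower in IP (median 1.08). Nr1d1, the repressor REV-ERB-alpha, had 28.3, 34.4 and 31.9 CPM in IP, against 5.85, 3.86 and 5.67 CPM in the supernatant, a log2 fold change of 2.62 ± 0.21 (SE, adjusted p = 7.89e-06), and Arntl, the core activator BMAL1, 279, 326 and 229 CPM in IP, against 171, 185 and 159.7 CPM in the supernatant, a log2 fold change of 0.7 ± 0.16 (SE, adjusted p = 0.00258).

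Genes used as references in many tissues lay nearer to equal levels. Of these, 9 of 18 were higher and 3 lower in IP, beside 39.9% and 40.3% of all genes tested, with a median of 0.27. Polr2a, the large subunit of RNA polymerase II, had 118, 103 and 103 CPM in IP, against 116, 118 and 107 CPM in the supernatant (-0.07, adjusted p = 0.499), but was at -0.4 (adjusted p = 0.00445) with libraries scaled by totals alone. Ctnnb1, beta-catenin, had 134, 126 and 148 CPM in IP, against 134, 121 and 136 CPM in the supernatant (0.06, adjusted p = 0.582), and -0.26 (adjusted p = 0.0613) on totals alone, a change of sign. Gusb, a lysosomal glucuronidase, fell to 16.3% of the supernatant level. Of 15 nuclear envelope and lamina genes, 5 were higher and 4 lower (median 0.01). Lmna, lamin A/C, had 36.6, 46 and 47.3 CPM in IP, against 8.21, 7.39 and 8.33 CPM in the supernatant, a log2 fold change of 2.44 ± 0.13 (SE, adjusted p = 2.27e-06), and Lbr, the lamin B receptor, 19.1, 21 and 18.9 CPM in IP, against 62.3, 63.5 and 54.4 CPM in the supernatant, a log2 fold change of -1.61 ± 0.09 (SE, adjusted p = 4.43e-06). Lmna was high in IP and Lbr in the supernatant, without overlap. Syne1, a giant protein that links nucleus and cytoskeleton, had 2.77, 4.63 and 12.7 CPM in IP, against 118, 127 and 121 CPM in the supernatant, a log2 fold change of -4.2 ± 0.64 (SE, adjusted p = 2.01e-04), with IP library C the highest of the IP libraries.

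To ask whether the fraction difference depended on feeding, the log2 fold change in fasted liver was set against that in fed liver. The difference of the differences passed for 1339 of 14342 genes tested, or 9.34%. The log2 fold change of IP over supernatant was larger in fasted liver for 519 genes (3.62%) and smaller for 820 (5.72%). Larger and smaller refer here and below to the signed value, so a gap below 0 that narrows in fasted liver counts as larger. These counts depend on single libraries: without fasted IP library A the total was 774, without fasted supernatant library A 776 and library C 861, and without fed supernatant library C 804, whereas without fasted IP library B it was 1505. DESeq2 called 2322. Beside these differences stand the marker sums. Hepatocyte markers in the supernatant were at 4.83% of IP in fasted and 3.52% in fed liver, and endothelial markers in IP at 2.7% of the supernatant in fasted and 5.0% in fed liver. Their part in the result was not tested. None of the 22 hepatocyte transcription factors and none of the 25 plasma protein genes passed; with library letter as a block, Tbx3 (adjusted p = 0.0141), Trf (0.0267) and Fgg (0.0307) did.

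Genes of fatty acid and cholesterol synthesis had less of an IP excess in fasted than in fed liver. In fasted liver 15 of 22 were higher and 2 lower in IP, beside 39.9% and 40.3% of all genes tested, with a median of 1.54. The signed fraction difference was smaller in fasted liver for 14 of the 22, where 5.72% of all genes were. The median difference was -1.66, beside -0.08 over all genes tested. Pnpla3, a lipid droplet hydrolase driven by insulin and carbohydrate (chr15:84167816-84189521), had 1.87, 0.869 and 0.824 CPM in fasted IP, against 12.1, 8.74 and 8.61 CPM in fasted supernatant. In fed mice it had 120.0, 303 and 31.6 CPM in fed IP, against 10.4, 12.6 and 7.51 CPM in fed supernatant. Its log2 fold change was -3.05 in fasted and 3.89 in fed liver, a difference of -6.95 ± 1.05 (SE, adjusted p = 0.00179), so the gene was lower in IP in fasted liver and higher in IP in fed liver. Srebf1, the master factor of lipogenesis, had 38.2, 45.9 and 25 CPM in fasted IP, against 38.4, 37.6 and 31.4 CPM in fasted supernatant. Fed mice had 323, 522 and 281 CPM in fed IP, against 44.8, 52.9 and 46.8 CPM in fed supernatant. The fractions overlapped in fasted liver and stood apart in fed liver, with a difference of -2.94 ± 0.39 (SE, adjusted p = 8.78e-04); Srebf1 overlaps Rai1. Acly, which makes cytosolic acetyl-CoA, differed by -2.81 ± 0.63 (SE, adjusted p = 0.00711), and Mvd, of the mevalonate pathway, by -3.52 ± 0.54 (SE, adjusted p = 0.00152). Scd1, the stearoyl-CoA desaturase, had 8.89, 16.5 and 5.9 CPM in fasted IP, against 38.2, 44.5 and 31.1 CPM in fasted supernatant, and 216, 638 and 67.4 CPM in fed IP, against 68.1, 136 and 58.6 CPM in fed supernatant; its difference was -3.66 ± 1.11 (SE, adjusted p = 0.0295), and fed IP libraries spread widely. The call for Scd1 was lost when any of these libraries was left out, namely fed IP B, fasted IP A or C, fed supernatant A or C, fasted supernatant A or B, with adjusted p of 0.058 to 0.0757. Lss, lanosterol synthase of the sterol pathway, differed by -1.71 ± 0.3 (SE, adjusted p = 0.00354). Insig2, a membrane anchor of the SREBP system, did not pass, at 4.23 in fasted and 3.36 in fed liver.

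Fatty acid oxidation and ketogenesis moved the other way for part of its genes. All 28 were higher in IP in fasted liver (median 3.19), beside 39.9% of all genes tested. Of them, 7 had a larger signed difference in fasted than in fed liver, where 3.62% of all genes did, and none a smaller one. Acot1, a cytosolic acyl-CoA thioesterase, had 49.6, 72.4 and 57.5 CPM in fasted IP, against 8.21, 10.7 and 9.78 CPM in fasted supernatant. In fed mice there were 1.51, 2.6 and 1.5 CPM in fed IP, against 3.34, 2.42 and 2.09 CPM in fed supernatant. The fractions stood apart in fasted liver, and the difference was 3.18 ± 0.38 (SE, adjusted p = 5.51e-04). Acot2, its mitochondrial relative, was at 0.94 in fasted and -2.18 in fed liver, a difference of 3.12 ± 0.28 (SE, adjusted p = 4.52e-04); as close relatives the pair may share reads. Acadm, the medium-chain acyl-CoA dehydrogenase of the mitochondrion, differed by 1.07 ± 0.23 (SE, adjusted p = 0.0122). Cpt1a, the gate of mitochondrial fatty acid import, was at 3.16 in fasted and 2.21 in fed liver; adjusted p of the difference was 0.0828 and, with library letter as a block, 0.0315.

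**Figure D5:**
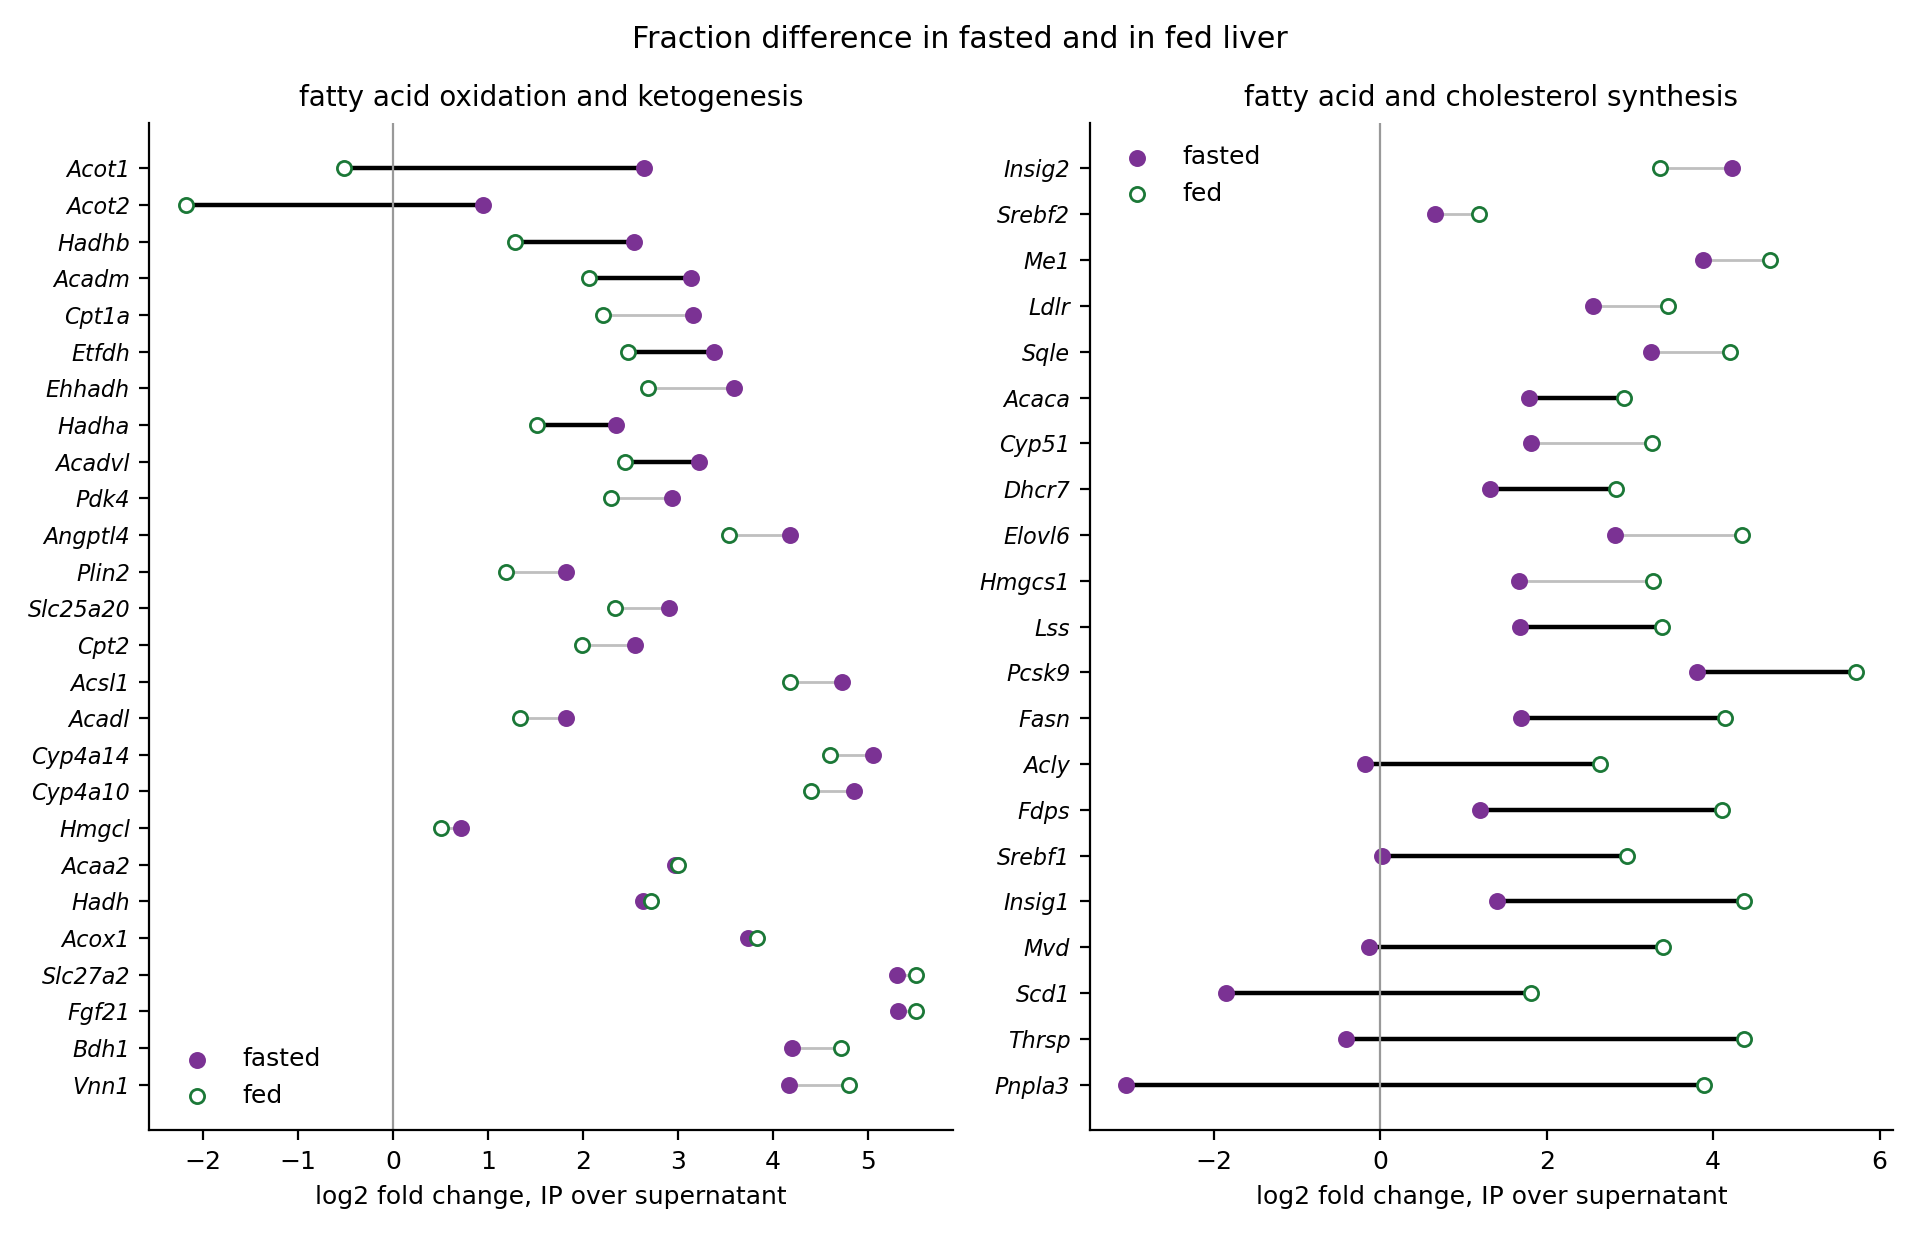
Log2 fold change, IP over supernatant, in fasted (filled) and fed (open) liver for most genes of 2 lists tested in both states, with a black line where the difference passed. The 3 lowest genes of the right panel, Scd1, Thrsp and Pnpla3, are below 0 in fasted and above 0 in fed liver, and Acot1 and Acot2 are above 0 in fasted and below 0 in fed liver.

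Over all genes, the 8 most positive and the 8 most negative differences among called genes with a mean of at least 5 CPM in a group ran from 3.48 to 4.33 and from -7.31 to -4.15 on the log2 scale. Slc41a3, a magnesium transporter of mitochondria, had 47.2, 33.1 and 18.1 CPM in fasted IP, against 18.9, 16.9 and 13.5 CPM in fasted supernatant, and 1.35, 1.57 and 1.93 CPM in fed IP, against 16, 17.5 and 15.3 CPM in fed supernatant; the difference was 4.33 ± 0.45 (SE, adjusted p = 4.52e-04). Cbfa2t3, a transcriptional corepressor, had 62.1, 71.3 and 21.8 CPM in fasted IP, against 58.6, 68 and 90.6 CPM in fasted supernatant, and 2.64, 2.47 and 5.56 CPM in fed IP, against 112, 62.4 and 97.6 CPM in fed supernatant; the difference was 4.17 ± 0.73 (SE, adjusted p = 0.00243). Both genes were low in fed IP, while their fasted fractions overlapped. Gadd45b, a stress-inducible growth arrest protein, differed by 4.21 ± 0.57 (SE, adjusted p = 0.00147), Mtl5 by 3.86 ± 0.6 (SE, adjusted p = 0.00152), Dusp8, a phosphatase of stress kinases, by 3.61 ± 0.54 (SE, adjusted p = 0.00265), and Pmepa1, a brake on TGF-beta signalling, by 3.48 ± 0.5 (SE, adjusted p = 0.00112). E030018B13Rik differed by 4.06 ± 0.67 (SE, adjusted p = 0.0209) and overlaps Klf13. The call for E030018B13Rik was lost when any of these libraries was left out, namely fed supernatant A or B, with adjusted p of 0.0619 to 0.101.

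On the negative side, Ddit4, a stress-induced inhibitor of mTORC1, had 1.1, 1.15 and 1.2 CPM in fasted IP, against 14.5, 3.47 and 12.6 CPM in fasted supernatant, and 2.71, 3.72 and 1.93 CPM in fed IP, against 1.11, 0.780 and 0.355 CPM in fed supernatant; its difference was -5.0 ± 0.83 (SE, adjusted p = 0.00239). The 2 chemokines Ccl9 and Cxcl1 differed by -4.76 ± 0.56 (SE, adjusted p = 6.72e-04) and -4.15 ± 0.73 (SE, adjusted p = 0.0032). Both were higher in IP in fed liver, at 2.53 and 4.13, and Ccl9 was lower in IP in fasted liver, at -2.24. Fabp5, a fatty acid-binding protein, differed by -5.3 ± 0.99 (SE, adjusted p = 0.00713). Chrna4, a subunit of the nicotinic acetylcholine receptor, had 0.0274, 0.344 and 0 CPM in fasted IP, against 1.04, 0.0778 and 0.305 CPM in fasted supernatant, and 80.03, 158 and 29.1 CPM in fed IP, against 1.9, 2.8 and 0.612 CPM in fed supernatant, a difference of -7.31 ± 1.57 (SE, adjusted p = 0.0115). So few reads in fasted liver leave the size of this difference to the prior count. Without fasted supernatant library A the call for Chrna4 was lost (adjusted p = 0.116). Ptgds, the lipocalin prostaglandin D synthase, was not tested in fasted liver, with 16 reads in IP and 6 in the supernatant, and had 12.9, 16.1 and 13.2 CPM in fed IP, against 0.0771, 0.134 and 0.161 CPM in fed supernatant; its difference was -5.39 ± 0.56 (SE, adjusted p = 0.00732). Without fasted supernatant library A the call for Ptgds was lost (adjusted p = 0.0957). Thrsp, a lipogenic nuclear protein, differed by -4.78 ± 1.36 (SE, adjusted p = 0.0243). The call for Thrsp was lost when any of these libraries was left out, namely fed IP B, fasted IP A, fed supernatant A, fasted supernatant A or C, with adjusted p of 0.0537 to 0.0661.

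Among glucocorticoid and fasting signal genes the signed difference was larger in fasted liver for 5 of 25 and smaller for 2, beside 3.62% and 5.72% of all genes tested. With library letter as a block the counts were 7 and 4. Txnip, an inhibitor of thioredoxin and of glucose uptake, had 37.5, 60.1 and 61.3 CPM in fasted IP, against 82.3, 92.8 and 80.04 CPM in fasted supernatant, and 6.72, 4.8 and 5.03 CPM in fed IP, against 94.3, 76.4 and 75.6 CPM in fed supernatant. Fed IP libraries were low while both supernatant groups were at like levels, and the difference was 3.2 ± 0.3 (SE, adjusted p = 2.73e-04). Cdkn1a, the cyclin-dependent kinase inhibitor p21, was at 2.1 in fasted and -0.92 in fed liver, a difference of 3.02 ± 0.77 (SE, adjusted p = 0.0118). Foxo1, the insulin-restrained factor of gluconeogenesis, differed by 1.3 ± 0.3 (SE, adjusted p = 0.0163). In the clock list 8 of 18 genes had a smaller signed difference in fasted liver and none a larger one, and 1 gene was larger with the block. Dbp, a clock output factor, had 0.850, 0.990 and 0.571 CPM in fasted IP, against 2.03, 1.69 and 1.19 CPM in fasted supernatant, and 18.1, 16.4 and 19.6 CPM in fed IP, against 5.09, 4.09 and 3.96 CPM in fed supernatant, a difference of -3.04 ± 0.34 (SE, adjusted p = 4.93e-04); Dbp overlaps Sphk2. Per3 differed by -1.79 ± 0.2 (SE, adjusted p = 6.22e-04) and Nfil3, a repressor of clock output, by -1.57 ± 0.32 (SE, adjusted p = 0.00718). Il6ra, the interleukin 6 receptor, was at 0.45 in fasted and -1.05 in fed liver, a difference of 1.5 ± 0.15 (SE, adjusted p = 6.13e-04); its fasted value was 0.13 (adjusted p = 0.429) with libraries scaled by totals alone. Among endothelial markers, Fcgr2b, an inhibitory Fc receptor, fell further in fasted IP, at -5.53 in fasted and -3.64 in fed liver, with a difference of -1.89 ± 0.49 (SE, adjusted p = 0.0135); beside it stand the endothelial marker sums in IP given above.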

How the data were processed

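Total RNA of liver nuclei, with no poly-A selection, was sequenced in fresh IP and supernatant fractions, as paired reads of 50 bases from stranded libraries made with 50 to 100 ng of RNA, per the labels' protocols. The authors deposited raw counts per gene, whose counted length is the whole gene span, per the file headers. The submitters' processing notes name STAR 2.4.2a, DESeq2 1.24.0 and the build mm10, without their role; counting tool and strand setting are not given in the sources used here. The table's 12 fresh columns match the groups by name, and 6 columns that match no sample here were not used. Letters A, B and C stand in no label. Libraries of the same letter deviated together across 8673 genes (r of 0.127 to 0.212 in fasted and 0.160 to 0.423 in fed liver, against -0.362 to 0.0153 for different letters), so letters were taken to pair the fractions; the tests were run without this block, which was an alternative.

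Counts were tested with edgeR 4.0.16 (quasi-likelihood, two-sided, R 4.3.3), with TMM factors over the 12 fresh libraries, a filter on low counts by group and Benjamini-Hochberg adjustment over all genes tested; the threshold was an adjusted p of 0.05. The fit of fasted libraries held 3 IP and 3 supernatant libraries, and the test of feeding was the interaction over 4 groups of 3. Fold changes came from the edgeR fit with its default prior count. SE refers to the difference between the mean log2 CPM of 2 groups, computed with a prior count of 2. At few reads the SE is therefore on a more shrunken scale than the fold change beside it. The SE also ignores the pairing by letter, so spread that both fractions of a letter share stays in it. No total or blank row stood among the counts. DESeq2 1.42.0 and Python 3.11.15 with pandas 2.3.3 and scipy 1.17.1 served the alternatives and summaries. Alternatives were other scalings, other filters, the block, and leaving out each library. The code was tested on simulated data in which few genes changed. That setting does not cover the scaling of libraries where most genes differ. Named genes were the 10 most extreme called genes each way with at least 10 CPM and no overlap, the 5 highest per kb in each fraction, the 8 most extreme differences each way with at least 5 CPM, and members of 25 gene lists. These members and lists were chosen with earlier results of these data known, so lists are given as counts and medians. Overlapping genes and near-identical relatives are uncertain, as the strand setting of the counting is not known here. Promoter sequences came from RefSeq and were matched by symbol, on the same strand and within 1000 bases of the gene start. Some genes that these rules name are not reported here.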

Additional observations from a re-analysis of the deposited data

Results flagged for a closer look

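For a number of genes named above, a test of the difference itself found that the log2 fold change of IP over supernatant in fasted liver was not that in fed liver (edgeR interaction term, adjusted p under 0.05 over all genes tested, 3 libraries in each of 4 groups). Values are fasted minus fed on the log2 scale. The difference was positive for Slc41a3 (4.33), Gadd45b (4.21), Cbfa2t3 (4.17), E030018B13Rik (4.06), Mtl5 (3.86), Dusp8 (3.61) and Pmepa1 (3.48). It was also positive for Txnip (3.2), Acot1 (3.18), Acot2 (3.12), Cdkn1a (3.02), Il6ra (1.5), Foxo1 (1.3) and Acadm (1.07). The difference was negative for Chrna4 (-7.31), Pnpla3 (-6.95), Ptgds (-5.39), Fabp5 (-5.3), Ddit4 (-5.0), Thrsp (-4.78), Ccl9 (-4.76), Cxcl1 (-4.15) and Scd1 (-3.66). Negative as well were the values of Mvd (-3.52), Dbp (-3.04), Srebf1 (-2.94), Acly (-2.81), Fcgr2b (-1.89), Per3 (-1.79), Lss (-1.71) and Nfil3 (-1.57). The calls for E030018B13Rik, Chrna4, Ptgds, Thrsp and Scd1 depended on single libraries, as given above.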

How the results depend on the processing

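The count of genes called between fractions stayed within 10441 to 11883 under the 9 other settings, 11210 with library letter as a replicate block and 11292 with DESeq2, and within 10572 to 11381 when a library was left out. Of 207 named fraction differences, 2 lost their call under another setting and 4 when a library was left out; 0 changed sign with a call. The count of genes whose difference depended on feeding moved to 2322 with DESeq2 and was 1446 with the block. By the signed value, 915 of the 2322 were larger and 1407 smaller in fasted liver. Leaving out a library gave 774 to 1505, with 284 to 529 larger and 473 to 1012 smaller; the cause was not tested. Of 35 named values of this kind, 0 lost the call under another setting and 5 when a library was left out. With libraries scaled by totals alone, the share of a marker list's level found in the fraction where it is scarce was 6.05% for hepatocyte, 1.25% for Kupffer cell, 1.03% for lymphocyte, 0.924% for dendritic cell, neutrophil and erythroid, 44.2% for cholangiocyte and 9.35% for mesothelial markers, by construction of the scaling. In an alternative chosen after seeing the data, without the member highest in the scarce fraction, it was 1.51% for endothelial (without Gata4), 0.254% for Kupffer cell (Slc40a1), 0.756% for lymphocyte (Tcf7), 0.626% for dendritic cell, neutrophil and erythroid (Klf1), 15.7% for cholangiocyte (Bicc1) and 5.14% for mesothelial and smooth muscle markers (Tagln). Leaving out a library gave 4.26 to 5.42% for hepatocyte, 2.31 to 3.08% for endothelial, 1.42 to 1.66% for Kupffer cell and 32.8 to 39% for cholangiocyte markers. Of list medians, 176 of 200 alternatives stayed within the spread between libraries, and of motif shares 12 of 20 stayed within their binomial interval. The block changed no call of a named gene between fractions, and for the test of feeding Cpt1a, Tbx3, Trf and Fgg gained a call. Depth limits genes with few reads in a fraction, such as Clec4d in IP, and 3 libraries a group limit the test of feeding.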

Other observations

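Families taken by gene name, chosen after results were seen, and not tested as sets, showed which members left their family. Over all genes tested, 39.9% were higher and 40.3% lower in IP. Of the Toll-like receptors, 1 of 12 genes tested were higher and 11 lower in IP, and the 1 that rose was Tlr5, the receptor of flagellin, with 75, 77.4 and 35.6 CPM in IP, against 4.72, 3.53 and 5.69 CPM in the supernatant (log2 fold change 3.75, adjusted p = 3.57e-05). Among collagens, 6 of 34 genes tested were higher and 24 lower in IP; Col18a1, whose fragment is endostatin, was the highest at 4.91. For interleukin receptors, 8 of 37 genes tested were higher and 26 lower in IP, with Il22ra1, a receptor chain of epithelial cells, highest at 4.85. For integrins, 5 of 25 genes tested were higher and 18 lower in IP, with Itga7, a laminin receptor, highest at 4.6. All 14 chemokine receptors and all 10 Ms4a membrane proteins tested fell. Of cytochromes of the Cyp2 family, 34 of 36 genes tested were higher and 1 lower in IP, and the member that fell was Cyp2s1 at -4.06. Of coagulation factors, 8 of 10 genes tested were higher and 2 lower in IP. The 2 that fell were F8, the cofactor of factor IX, with 39.4, 39.7 and 36.9 CPM in IP, against 303, 378 and 513 CPM in the supernatant (log2 fold change -3.36, adjusted p = 3.80e-06), and F13a1, the transglutaminase chain made by macrophages and platelets, at -3.82, beside 5.16 for F7.

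Of cytosolic ribosomal protein genes, 43 of 76 genes tested were higher and 1 lower in IP (median log2 fold change 0.43), beside 39.9% and 40.3% of all genes tested, and of complex I subunits, 33 of 36 genes tested were higher and 0 lower in IP (median 1.08). The proteasome split: 31 of 37 genes tested were higher and 4 lower in IP, and 3 of those that fell were the subunits of the immunoproteasome. Psmb8 had 1.23, 1.25 and 0.856 CPM in IP, against 11, 10.9 and 8.79 CPM in the supernatant (-3.18, adjusted p = 4.89e-06), Psmb9 was at -3.58 and Psmb10 at -1.11. With libraries scaled by totals alone these medians were 0.1 for ribosomal, 0.76 for complex I and 0.76 for proteasome genes.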
